A study of Mus musculus with 10 samples.

Results

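Transcript levels of 10 genes of the cell's machinery for sensing double-stranded RNA were followed in mouse embryonic stem cells (ESCs). The genes were given as a list of names, drawn up with earlier results of these data known, and were found by symbol among the 51467 genes of the count table. They are the RNA helicase sensors Ddx58 (RIG-I), Ifih1 (MDA5) and Dhx58 (LGP2), the endosomal receptor Tlr3, the ubiquitin ligase Trim25, the adaptor Mavs, the kinase Tbk1, the transcription factor Irf3, the kinase Eif2ak2 (PKR) and the RNA-editing enzyme Adar. All 10 were in the table. Messenger RNA was read at its 3′ end (QuantSeq) in 3 wild-type (WT) libraries, 3 libraries of DGCR8 KO cells and 4 libraries of DDX6 KO cells, the last being 2 libraries from each of 2 clones. DGCR8 is the partner of the nuclease Drosha that most miRNAs need for their maturation, and DDX6 is an RNA helicase that acts with miRNA effector proteins in translational repression and mRNA decay. All cells were cultured with serum, LIF and the inhibitor pair called 2i, and the labels name no virus or other stimulus. Per the study's methods, the DDX6 KO clones were made by CRISPR and the DGCR8 KO cells are a line made earlier. Each DDX6 KO clone derives from 1 cell, and one clone carries a small insertion and the other a large deletion in Ddx6. The labels do not say from how many clones the DGCR8 KO libraries came, nor whether libraries of a group came from separate cultures, so the p-values measure the spread between these libraries, which may be technical.

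RIG-I and MDA5 bind double-stranded RNA in the cytoplasm, and LGP2 modulates them. Once bound, they engage MAVS on the mitochondrial surface, which recruits TBK1 to phosphorylate IRF3, and IRF3 then switches on type I interferon genes. TRIM25 attaches ubiquitin to RIG-I, TLR3 signals from endosomes through the adaptor TICAM1, PKR halts translation by phosphorylating eIF2alpha, and ADAR edits adenosines in double-stranded RNA, which keeps the cell's own RNA from being sensed. Several of these genes, Ddx58, Ifih1 and Eif2ak2 among them, are themselves induced by interferon in differentiated cells. ESCs are known for a weak interferon response.

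Library totals ran from 2131156 to 4745083 counts, and a floor of 3 counts was worth 0.669 to 1.44 CPM, that is, counts scaled to the library total after normalisation by the trimmed mean of M-values. Dgcr8 fell in DGCR8 KO cells, from 56.1 ± 8.41 CPM to 11.6 ± 3.41 (SD, n = 3 for each), and Ddx6 fell from 538 ± 42.3 (SD, n = 3) to 87.2 ± 63.8 (SD, n = 4) in DDX6 KO cells. All 8 ESC markers examined were above the floor in every library. Their summed level was 4037 to 4309 CPM in WT, 3640 to 4017 in DGCR8 KO and 4038 to 4269 in DDX6 KO libraries, so that the DGCR8 KO sums lay below those of WT. Fibroblast markers summed to at most 8.79 CPM and primitive endoderm markers to at most 5.28. In bulk libraries, fewer cells expressing a gene and less RNA per cell cannot be told apart.

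In WT cells 7 of the 10 genes were expressed above the filter used for testing, which asked for at least 3 CPM in at least 3 libraries. QuantSeq gives about 1 read per transcript, so that CPM was compared between genes without a correction for length. Reads without a unique alignment or outside annotated exons were not counted, so the order of genes is approximate. Trim25 stood highest, at 144 ± 9.95 CPM (SD, n = 3), above 85.4% of the 11683 genes tested. It was followed by Adar at 27.8 ± 6.94 CPM, Tbk1 at 25.8 ± 3.09, Eif2ak2 at 23.9 ± 2.41, Ddx58 at 20.3 ± 8.26 and Mavs at 14.9 ± 3.46 (SD, n = 3 for each). Each of these 5 overlapped its neighbour in the order across the WT libraries. Irf3 lay lowest of the 7, at 8.65 ± 2.52 CPM (SD, n = 3), below the range of Mavs and above 25.2% of the genes tested. The order changed with genotype. Ddx58 came second in DGCR8 KO cells, where its range overlapped that of Tbk1, while Tbk1, Eif2ak2 and Adar stood above it in DDX6 KO cells as in WT. Adar, second in WT, came after Tbk1 and Eif2ak2 in DDX6 KO cells, where its range overlapped that of Eif2ak2.

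**Figure D1:**
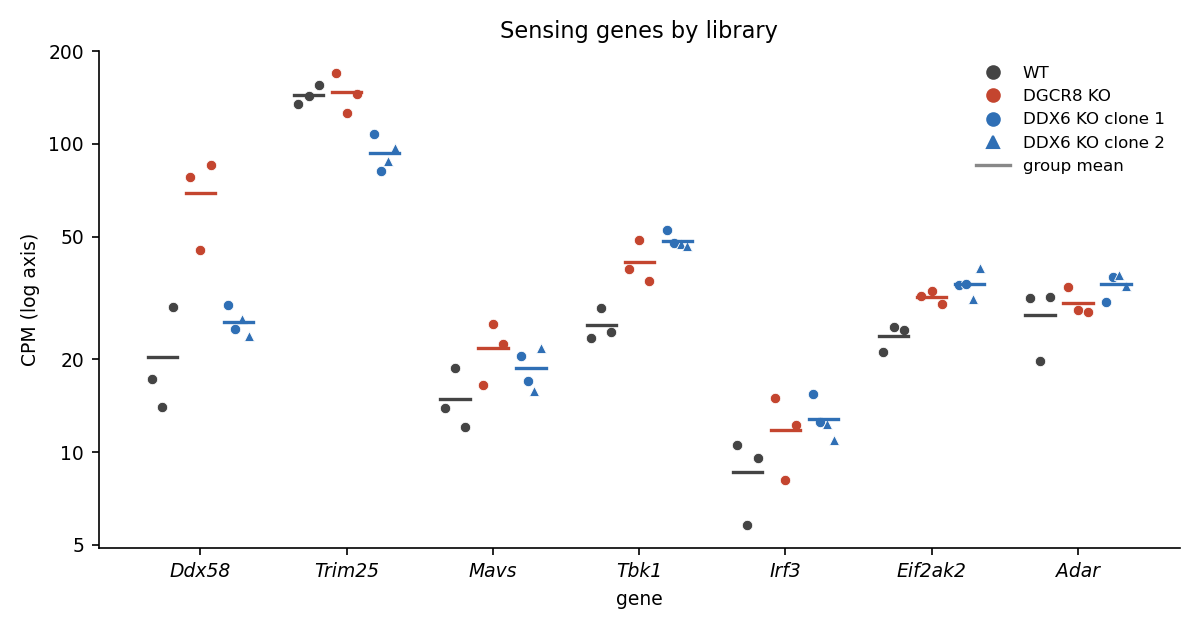
CPM (log axis) of the 7 tested sensing genes in each of the 10 libraries. Points are libraries, triangles mark DDX6 KO clone 2, and bars are group means. The 3 DGCR8 KO libraries lie above all others for Ddx58, and the 4 DDX6 KO libraries lie below all others for Trim25.

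The remaining sensors were barely detected. Ifih1 had no count in any WT library, 1, 2 and 2 counts in the DGCR8 KO libraries and at most 1 in a DDX6 KO library, 7 in all. Dhx58 had 0, 2 and 2 counts in WT, none in DGCR8 KO, none in clone 1 and 4 and 2 in clone 2, 10 in all. Tlr3 had no count in WT, 4 in only 1 DGCR8 KO library, 4 and 1 in clone 1 and 1 and 3 in clone 2, 13 in all. None of the 3 passed the filter, and a difference between genotypes was not detectable at this depth. When every gene with a count was tested, Ifih1 in DGCR8 KO (limma adjusted p = 0.0373) and Tlr3 in DDX6 KO (limma adjusted p = 0.0225) fell under the threshold on those few counts. Tlr3 is on chromosome 8, whose tested genes had a median log2 difference from WT of -0.45 in DGCR8 KO cells. None of the 7 tested sensing genes is on that chromosome.

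DGCR8 KO cells were compared with WT to see how the sensing genes stand without canonical miRNAs. Of the 7 tested, 2 rose (Ddx58 and Tbk1) at an adjusted p-value under 0.05, where 19.9% of all genes tested rose and 16.5% fell. None fell in limma, edgeR or DESeq2, and all 7 fitted differences were above 0. A count of 2 among 7 is near that background. The median log2 fold change of the 7 was 0.45, against 0.00 over all genes tested. With a log2 fold change beyond 1 required as well, which 14.7% of all genes met in either direction, Ddx58 alone was left.

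Ddx58 (GRCm38 chromosome 4, 40204849 to 40239828, minus strand) encodes RIG-I, the sensor of short double-stranded RNA with a 5′ triphosphate. It stood at 17.3, 13.97 and 29.7 CPM in the WT libraries and at 78.1, 45.1 and 85.1 CPM in the DGCR8 KO libraries. The groups did not overlap, although the lowest DGCR8 KO library was well under the other pair and the third WT library was above its own pair. It rose 3.23-fold (1.69 ± 0.27 on the log2 scale, SE; limma adjusted p = 7.3e-05). Across the alternative fits it ran from 1.44 to 2.10.

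A feature that Ddx58 shares with some of the other sensors is a match in its promoter to the letters GAAANNGAAA, the core of the interferon-stimulated response element (ISRE) bound by the IRF9-containing complex ISGF3 and by other IRF proteins. RefSeq promoters (GRCm38.p6, 250 bases before to 50 after the transcription start) were at hand for 9 of the 10 genes, Dhx58 being the exception. Searched on both strands, the match was found in 3 of the 9, Ddx58, Ifih1 and Eif2ak2, and in 3.44% of the 32851 promoters of that length. The promoters of Mavs, Tlr3, Adar, Trim25, Irf3 and Tbk1 did not hold these letters. The windows below are written 5′ to 3′ on the gene's strand with the match in capitals, which for Ddx58 reads TTTCNNTTTC because it lies on the other strand. The matches start at position 3 (Ddx58), 33 (Ifih1) and 19 (Eif2ak2) counted from the transcription start.
Ddx58, chr4:40239806-40239831, minus strand: tgaggcagTTTCGATTTCctatggcc
Ifih1, chr2:62646206-62646231, minus strand: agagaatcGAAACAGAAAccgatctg
Eif2ak2, chr17:78882537-78882562, minus strand: tccgccggGAAAACGAAAcagaagag

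Tbk1 (chromosome 10, 121546455 to 121586787, minus strand) encodes the kinase that MAVS, TICAM1 and the DNA-sensing adaptor STING all use to activate IRF3. It had 23.5, 29.3 and 24.5 CPM in WT and 39.2, 48.9 and 35.8 CPM in DGCR8 KO cells. All DGCR8 KO libraries were above all WT libraries. It rose 1.596-fold (0.67 ± 0.17 on the log2 scale, SE; limma adjusted p = 0.00411).

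Mavs (chromosome 2, 131234067 to 131248025, plus strand), the adaptor on which RIG-I and MDA5 signals meet, had 13.9, 18.7 and 12.04 CPM in WT and 16.5, 26.1 and 22.4 CPM in DGCR8 KO cells. The lowest DGCR8 KO library lay inside the WT range. The log2 fold change of 0.55 (95% confidence interval 0.06 to 1.05) did not pass the threshold (limma adjusted p = 0.0752). It did without WT replicate 2 (log2 fold change 0.73, limma adjusted p = 0.0435) and without DGCR8 KO replicate 1 (0.76, limma adjusted p = 0.0281). With 29 to 78 counts per library, Mavs was measured less precisely than Trim25.

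Eif2ak2, the kinase PKR, had 32.1, 33.3 and 30.1 CPM in DGCR8 KO libraries against 21.1, 25.6 and 25.0 in WT. The libraries did not overlap, but a log2 fold change of 0.40 gave a limma adjusted p of 0.0695. Irf3, the factor that TBK1 activates, was 0.45 ± 0.30 above WT on the log2 scale (SE; limma adjusted p = 0.255) and Adar 0.16 ± 0.19 (SE; limma adjusted p = 0.535). Neither differed beyond the spread between libraries. Trim25, the ligase that acts on RIG-I, was at 135, 143 and 155 CPM in WT and 169, 126 and 145 in DGCR8 KO cells. Its log2 fold change was 0.01 with a 95% confidence interval of -0.26 to 0.28 (limma adjusted p = 0.954).

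**Figure D2:**
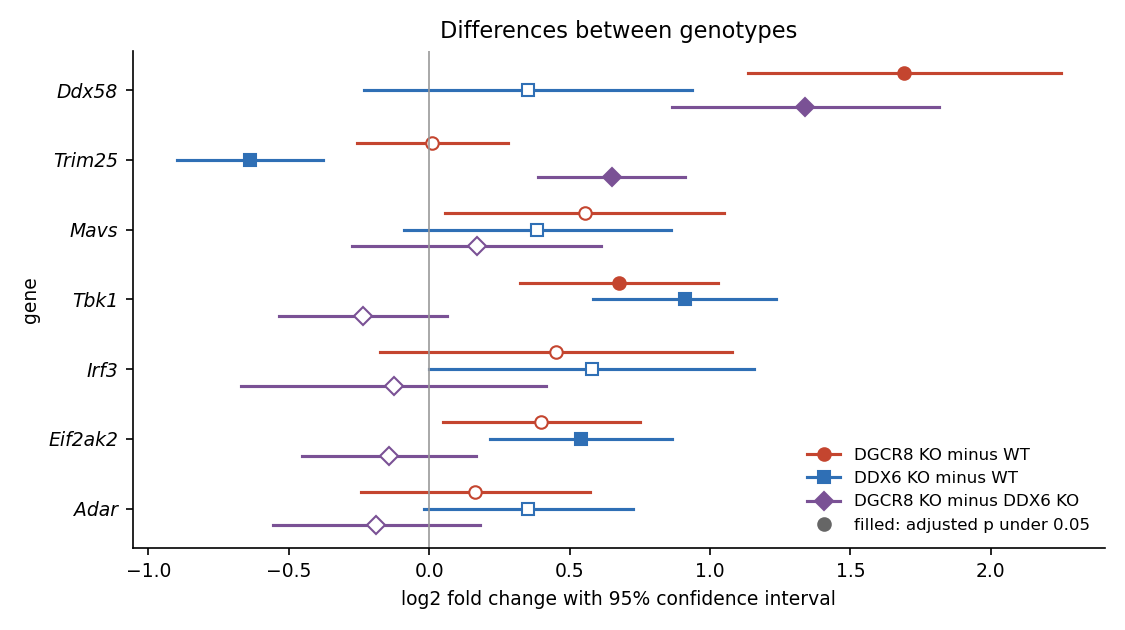
Log2 fold changes (points) with 95% confidence intervals (lines) of the 7 tested sensing genes in the comparisons of each knockout with WT and of the knockouts with each other. Filled symbols have a limma adjusted p under 0.05; Ddx58 is at 1.69 in DGCR8 KO and 0.35 in DDX6 KO, and Trim25 at 0.01 and -0.64.

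DDX6 KO cells were set against the same WT libraries, to see how the sensing genes stand without the helicase. Here 2 of the 7 genes rose (Tbk1 and Eif2ak2) and 1 fell (Trim25), against 17.9% of all genes tested that rose and 16.6% that fell. No member passed with a log2 fold change beyond 1, which 11.2% of all genes did. The median of the 7 was 0.39, against 0.02 over all genes.

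Tbk1 reached 52.4 and 47.6 CPM in clone 1 and 47.5 and 46.7 CPM in clone 2. These lay above all WT libraries, by 1.88-fold on average (log2 fold change 0.91, SE 0.16, limma adjusted p = 2.39e-04). Eif2ak2 had 34.8 and 35.1 CPM in clone 1 and 31.3 and 39.5 in clone 2, again above every WT library. It rose 1.46-fold (log2 fold change 0.54, SE 0.15, limma adjusted p = 0.0114), and over the alternatives its adjusted p ran from 0.00298 to 0.0496. With each clone fitted as its own group, the limma adjusted p for Eif2ak2 against WT was 0.0511 in clone 1 and 0.0385 in clone 2. Trim25 had 107 and 81.7 CPM in clone 1 and 88.3 and 96.8 in clone 2, below every library of the other genotypes. It fell by 0.64 on the log2 scale (SE 0.12, limma adjusted p = 7.28e-04), to 0.643 of its WT level.

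The other tested members did not pass in DDX6 KO cells. Ddx58 was at 30.0 and 25.0 CPM in clone 1 and at 27.1 and 23.8 in clone 2, where the third WT library alone stood at 29.7. Its log2 fold change was 0.35 (SE 0.28, 95% confidence interval -0.23 to 0.94, limma adjusted p = 0.345). With the replicate number as a block it passed (log2 fold change 0.59, limma adjusted p = 0.0231). Mavs had 20.5 and 17.0 CPM in clone 1 and 15.8 and 21.8 in clone 2, which overlapped WT, and was 0.39 ± 0.23 above it on the log2 scale (SE; limma adjusted p = 0.200). Irf3 had 15.4, 12.5, 12.3 and 10.9 CPM, above every WT library by a narrow margin, the highest of them being at 10.6. The log2 fold change, 0.58, had a limma adjusted p of 0.113. Adar was 0.35 ± 0.18 above WT (log2, SE; limma adjusted p = 0.132).

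The genes that moved in DDX6 KO cells can be set beside the seed of the ESCC miRNAs, the family most abundant in ESCs. These miRNAs need DGCR8, and their repression draws on the complex in which DDX6 takes part. The study reported that without DDX6 the targets of this family rose in translation and changed little in mRNA stability. The values here are mRNA levels and do not measure translation. The mature sequences held by RefSeq (GRCm38.p6) for 5 of the family are given to show the seed they share, bases 2 to 8, in capitals.
mmu-miR-291a-3p: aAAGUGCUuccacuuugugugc
mmu-miR-294-3p: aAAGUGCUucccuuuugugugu
mmu-miR-295-3p: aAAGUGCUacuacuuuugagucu
mmu-miR-302b-3p: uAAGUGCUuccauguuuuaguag
mmu-miR-302d-3p: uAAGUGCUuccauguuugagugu

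A match to that seed was the site AGCACTT or GCACTTA, sought on the sense strand in the 3′ UTR of each gene's main coding transcript (Gencode M21, GRCm38). Of the 10 sensing genes 2 held 1 site each, Eif2ak2 in a 3′ UTR of 2575 bases and Trim25 in one of 3572 bases. Among 20963 genes 16.5% held a site, at a median 3′ UTR length of 851 bases. Only Ifih1, with 2111 bases, came near them in length among the sensing genes, and Adar had the shortest 3′ UTR, of 231 bases. The site of each is given in capitals within its surroundings.
Eif2ak2, chr17:78852756-78852778, minus strand: cttctcaaAGCACTTtggacctt
Trim25, chr11:89017174-89017196, plus strand: tggtgcgtGCACTTAatccgagc

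Of these genes with a site, Eif2ak2 had log2 fold changes of 0.40 in DGCR8 KO, not past the threshold, and 0.54 in DDX6 KO, and Trim25 had 0.01 and -0.64. Ddx58, which rose in DGCR8 KO cells, and Tbk1, which rose in each knockout, held neither site in the transcript searched. The match is a description of the letters and no measure of binding.

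The knockouts were also compared with each other. Of the 7 genes 2 were higher in DGCR8 KO than in DDX6 KO cells, Ddx58 and Trim25, where 23.0% of all genes tested were higher and 21.0% lower. None of the 7 was lower in limma, edgeR or DESeq2, also at an unadjusted p under 0.05 in limma. For Ddx58 the difference was 1.34 (log2, SE 0.23, limma adjusted p = 1.16e-04), or 2.53-fold, and all 3 DGCR8 KO libraries lay above all 4 DDX6 KO libraries. For Trim25 it was 0.65 (log2, SE 0.12, limma adjusted p = 3.9e-04), again with no overlap. With a log2 difference beyond 1 required, as 17.1% of all genes had, Ddx58 alone was left. For Tbk1 the difference of -0.24 had a 95% confidence interval of -0.53 to 0.06 (limma adjusted p = 0.191, or 0.0481 when scaled to total counts), and for Mavs that of 0.17 had an interval of -0.28 to 0.61 (limma adjusted p = 0.544).

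To compare the DDX6 KO clones, each clone was fitted as its own group. None of the 7 genes differed between them at an adjusted p-value under 0.05 in limma or at an unadjusted p under 0.05, and 0.0428% of all genes tested did so after adjustment. Mean levels were 18.8 CPM in either clone for Mavs, 27.5 and 25.4 for Ddx58, 94.5 and 92.6 for Trim25 and 50.0 and 47.1 for Tbk1, in clone 1 and clone 2. The largest log2 difference of clone 2 from clone 1 among the 7 was -0.26 for Irf3 (95% confidence interval -0.97 to 0.44). Ddx6 itself stood at 142 CPM on average in clone 1 and at 32.4 in clone 2.

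Partners of the sensors in signalling were taken from a list of 47 genes, 43 of which were tested. In DGCR8 KO cells 12 rose and 5 fell, where 19.9% of all genes tested rose and 16.5% fell. In DDX6 KO cells 12 rose and 6 fell, where 17.9% of all rose and 16.6% fell. The medians of the list were 0.16 and 0.25 on the log2 scale, against 0.00 and 0.02 over all genes tested. Irf1, a transcription factor that induces antiviral genes, rose most in DGCR8 KO cells, from 74.9, 67.1 and 58.2 CPM in WT to 353, 204 and 165 (log2 fold change 1.82, SE 0.26, limma adjusted p = 2.54e-05). In DDX6 KO cells it was at 99.3, 62.6, 76.7 and 43.7 CPM, around the WT level. Ticam1, the adaptor of TLR3, was at 3.66 ± 1.24 CPM in WT and 7.59 ± 1.07 in DGCR8 KO cells (SD, n = 3 for each) with a log2 fold change of 1.20 (limma adjusted p = 0.015), and Fadd, a death-domain adaptor, rose by 1.20 as well (limma adjusted p = 0.0235). The Ticam1 call was lost without WT replicate 3 or DGCR8 KO replicate 1 (adjusted p up to 0.168 in limma), and the Fadd call without WT replicate 1 or 2 or DGCR8 KO replicate 1 (up to 0.0723). DESeq2 made neither call. Rnf125, a ubiquitin ligase that marks RIG-I for degradation, rose from 18.4 ± 3.54 to 40.7 ± 7.24 CPM (SD, n = 3 for each) (1.12 ± 0.21 on the log2 scale, SE; limma adjusted p = 3.84e-04).

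In DDX6 KO cells the partners that rose most were Traf2 and Tmem173. Traf2, a ubiquitin ligase downstream of MAVS, was at 5.35 ± 1.30 CPM in WT (SD, n = 3) and 13.1 ± 2.42 in DDX6 KO cells (SD, n = 4), which is 1.24 ± 0.28 on the log2 scale (SE; limma adjusted p = 0.00256). Tmem173 (STING), the adaptor of cytosolic DNA sensing, was at 6.56 ± 2.29 CPM in WT (SD, n = 3) and 16.6 ± 5.12 in DDX6 KO cells (SD, n = 4), or 1.22 ± 0.32 on the log2 scale (SE; limma adjusted p = 0.00675). Between the knockouts, Traf2 was lower in DGCR8 KO by 1.27 and Tmem173 by 2.04 (log2 differences -1.27 and -2.04, limma adjusted p = 0.00196 and 3.96e-04), while Rnf125 was higher by 1.501 (limma adjusted p = 1.28e-05). Tank, a scaffold of TBK1, and Irf5 had log2 fold changes of 0.99 and 0.95 in DDX6 KO (limma adjusted p = 0.0136 and 0.0381). Irf5 lies on chromosome 6, where the median log2 difference of the other tested genes was 0.59 in DDX6 KO cells (0.533 to 0.681 by library, with Irf5 itself counted), and stood 0.36 above that median. Tbkbp1, a TBK1-binding adaptor, was lower than WT in either knockout, with log2 fold changes of -1.35 in DGCR8 KO (limma adjusted p = 0.00731) and -0.9996 in DDX6 KO (limma adjusted p = 0.0163), measured against the same WT libraries. The calls of Tank (without WT replicate 3, adjusted p = 0.158 in limma) and Tbkbp1 in DDX6 KO (without WT replicate 1 or 3, up to 0.113) were lost with a library left out, and the Irf5 call was lost without WT replicate 1 or 3, clone 1 replicate 1 or clone 2 replicate 1 (up to 0.387) and in edgeR and DESeq2. Neither clone alone gave the Tbkbp1 or the Irf5 call, and clone 1 alone did not give that of Tank.

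Of 33 other proteins that bind double-stranded RNA, 23 were tested. In DGCR8 KO cells 7 rose and 0 fell, also at an unadjusted p under 0.05 in limma and with 0 falling in edgeR and DESeq2, against 19.9% and 16.5% of all genes. In DDX6 KO cells 2 rose and 1 fell, against 17.9% and 16.6% of all genes. The list had medians of 0.16 and 0.03 on the log2 scale, in that order. Zbp1, a sensor of Z-form nucleic acid, had 0, 0 and 2 counts in WT and 15, 28 and 14 in DGCR8 KO. It passed the filter only through the DGCR8 KO libraries, so that its selection favoured a difference. The same held for Oas1c, which did not pass the threshold (limma adjusted p = 0.572). Of the 21 genes of the list that passed without those libraries 6 rose. Oasl1, of the oligoadenylate synthetase family, had 0, 0 and 4 counts in WT, 19, 13 and 11 in DGCR8 KO and 16, 27, 25 and 29 in DDX6 KO (limma adjusted p = 2.82e-04 and 5.61e-05), and passed the filter through knockout libraries alone. Oas1a, which makes the activator of RNase L, rose by 1.90 ± 0.45 on the log2 scale in DGCR8 KO cells (SE; limma adjusted p = 0.0027), and Stau2, an mRNA transport protein, had 1.07 (limma adjusted p = 0.0128). Zc3hav1 (ZAP), which binds viral RNA, rose from 118 ± 11.2 to 157 ± 27.8 CPM (SD, n = 3 for each; limma adjusted p = 0.0168). The calls were lost for Stau2 without DGCR8 KO replicate 1 (adjusted p = 0.0528 in limma) and for Zc3hav1 without WT replicate 2 or 3 or DGCR8 KO replicate 2 (up to 0.0917). In DDX6 KO cells the editing enzyme Adarb1 had a log2 fold change of 0.81 (limma adjusted p = 0.0317) and the helicase Dhx9 one of -0.26 (limma adjusted p = 0.0204). The Adarb1 call was lost without WT replicate 1 or 3 or either clone 2 library (adjusted p up to 0.116 in limma), and the Dhx9 call without WT replicate 2 or 3 or clone 1 replicate 2 (up to 0.0686). DESeq2 and clone 1 alone did not give the Adarb1 call, and neither clone alone gave that of Dhx9. Of the 3 eIF2alpha kinases other than PKR, Eif2ak3 (PERK) rose in DDX6 KO cells by 0.83 on the log2 scale (limma adjusted p = 0.00226). It too lies on chromosome 6, and stood 0.24 above the median of 0.59 of that chromosome's other tested genes. Eif2ak1 fell by 0.51 in DGCR8 KO cells (limma adjusted p = 0.0377), a call that edgeR and DESeq2 did not make and that leaving out WT replicate 1 or 3 or DGCR8 KO replicate 1 or 2 ended.

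**Figure D3:**
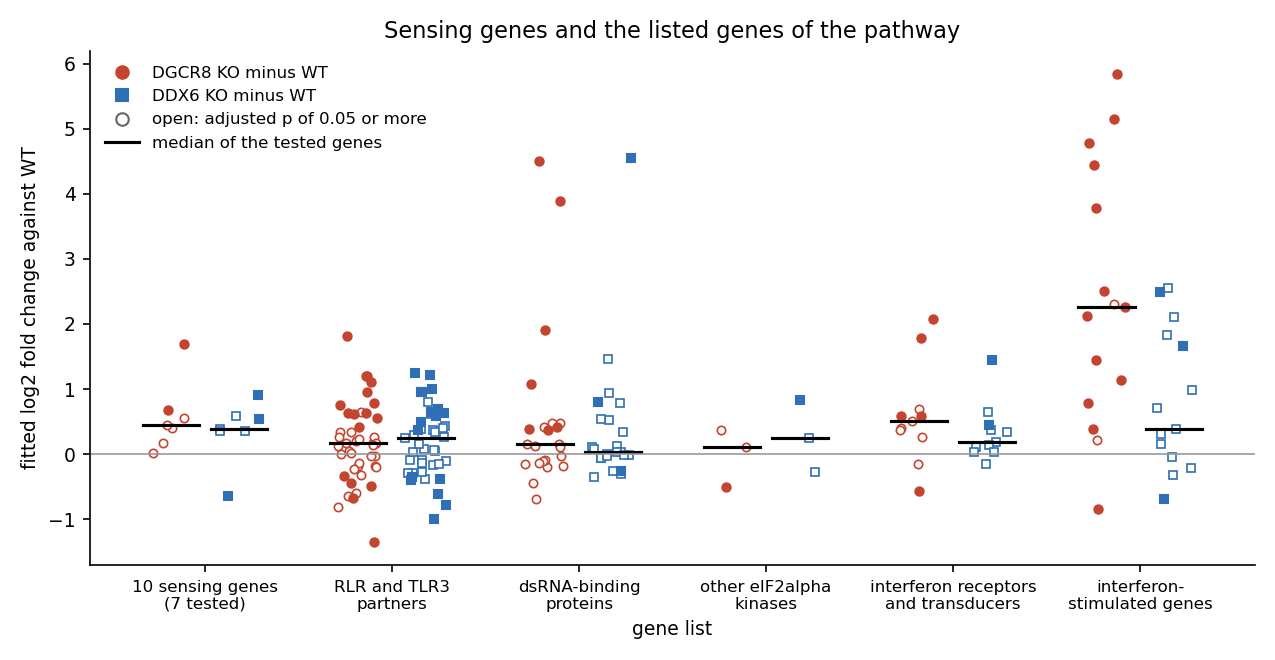
Fitted log2 fold changes against WT of the tested sensing genes and of the genes of 5 pathway lists, in DGCR8 KO (circles) and DDX6 KO (squares). Each point is a gene, filled where its limma adjusted p was under 0.05, and black bars are medians of the tested genes; 12 of the 15 interferon-stimulated genes are filled above 0 in DGCR8 KO, 3 of which passed the filter only through those libraries, and genes without a count in WT appear at fitted values that are no bound.

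Downstream of the sensors, none of the 8 type I and type III interferon genes listed had a count in any library, where 3 counts allow a level of up to 0.669 to 1.44 CPM. Of the receptors and transducers, 11 genes were tested. Irf9, the DNA-binding subunit of the ISGF3 complex, rose from 15.8, 14.7 and 26.5 CPM in WT to 76.2, 68.2 and 111 CPM in DGCR8 KO (log2 fold change 2.08, SE 0.23, limma adjusted p = 1.7e-06) and was at 21.6, 23.3, 17.9 and 22.9 CPM in DDX6 KO. This was the order of the groups seen for Ddx58. Jak1, a kinase bound to the interferon receptor, rose by 0.58 on the log2 scale in DGCR8 KO and by 0.44 in DDX6 KO (limma adjusted p = 8.38e-04 and 0.00558). The receptor chain Ifnar1 rose by 0.58 (limma adjusted p = 0.0267) and the phosphatase Ptpn11 fell by 0.57 (limma adjusted p = 0.00864) in DGCR8 KO cells. The Ifnar1 call was lost without WT replicate 2 or 3 or DGCR8 KO replicate 2 (adjusted p up to 0.0926 in limma). In total 4 of the 11 rose and 1 fell in DGCR8 KO, against 19.9% and 16.5% of all genes, and 2 rose in DDX6 KO, against 17.9%.

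Of 35 interferon-stimulated genes listed, 15 were tested. In DGCR8 KO cells 12 rose and 1 fell, against 19.9% and 16.5% of all genes, and in DDX6 KO cells 2 rose and 1 fell, against 17.9% and 16.6%. Compared directly, 12 were higher in DGCR8 KO than in DDX6 KO cells and 1 was lower, against 23.0% and 21.0% of all genes. Of those 12, Rsad2, Psmb8 and Gbp2 passed the filter only through the DGCR8 KO libraries, so that their selection favoured a difference. Among the 12 genes of the list that passed without those libraries, 9 rose and 1 fell in DGCR8 KO, and 9 were higher and 1 lower than in DDX6 KO. Without DGCR8 KO replicate 1, the number past the threshold went from 13 to 8 both against WT and between the knockouts. It was likewise 8 between the knockouts without DGCR8 KO replicate 2. Part of this drop is Rsad2, Psmb8 and Gbp2, which missed the filter with a DGCR8 KO library left out and were not tested.

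Rsad2 (viperin), an antiviral enzyme, had no count in WT, 25, 40 and 19 in DGCR8 KO and 1 to 3 in DDX6 KO libraries, so that it was at least 9.25-fold higher in DGCR8 KO than 3 counts per WT library would give. Psmb8, an immunoproteasome subunit, was at least 5.53-fold higher and the GTPase Gbp2 at least 4.44-fold higher by the same measure. Parp14 rose from 1.57 ± 1.31 to 19.3 ± 6.18 CPM (SD, n = 3 for each), by 3.78 ± 0.54 on the log2 scale (SE; limma adjusted p = 2.69e-05). Irgm1 had 1, 2 and 1 counts in WT and 85, 29 and 13 in DGCR8 KO (limma adjusted p = 0.00385), a wide spread, and passed the filter through knockout libraries alone. Ifitm1, a membrane protein that blocks viral entry, stood at 37.4, 43.3 and 43.9 CPM in WT, 238, 244 and 237 in DGCR8 KO and 21.2, 22.3, 29.9 and 30.5 in DDX6 KO. It rose in DGCR8 KO by 2.51 (limma adjusted p = 3.5e-10) and fell in DDX6 KO by 0.69 (limma adjusted p = 0.00257). In DDX6 KO cells Igtp and Parp14 had log2 fold changes of 2.49 and 1.66 (limma adjusted p = 0.0377 and 0.0336) on at most 15 counts in a DDX6 KO library. Igtp reached the filter only with the DDX6 KO libraries included, and both calls were lost without WT replicate 1 or 3, clone 1 replicate 2 or clone 2 replicate 2, and also without clone 2 replicate 1 (Igtp) or clone 1 replicate 1 (Parp14), with adjusted p up to 0.120 and 0.268 in limma. The interferon-stimulated genes that did not pass the filter included Isg15, with 3 counts over all libraries, Ifit1 with 1, and Mx1 with none. These 3 were picked out after their counts were seen.

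**Figure D4:**
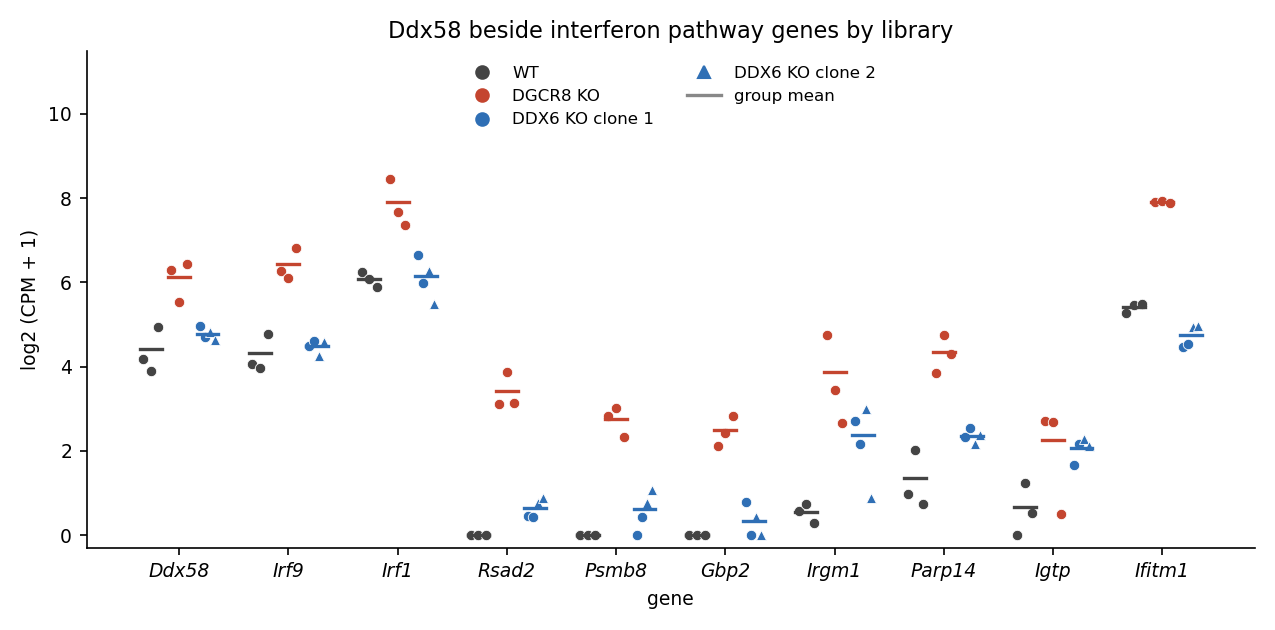
Log2 (CPM + 1) by library of Ddx58, Irf9, Irf1 and the 7 interferon-stimulated genes with the largest changes named in either knockout. Points are libraries, triangles mark DDX6 KO clone 2, and bars are the log2 of the group mean plus 1. The DGCR8 KO libraries lie above all others for each gene shown but Irgm1 and Igtp, where they overlap other libraries. The genes beside Ddx58 were picked by the size of their changes in these libraries, which favours a lack of overlap. Rsad2, Psmb8 and Gbp2 also passed the filter only through the DGCR8 KO libraries.

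Among markers of other cell types, the blood and immune sum and the trophoblast sum were highest in DGCR8 KO libraries. The fibroblast and primitive endoderm sums were not, and reached 3.39 and 3.05 CPM there, against 3.84 and 5.28 in WT. The 5 blood and immune markers summed to 13.6 to 13.9 CPM in WT, 35.5 to 48.9 in DGCR8 KO and 20.1 to 23.8 in DDX6 KO libraries. The sum came from Cd3e and Cd68, while Ptprc and Tyrobp, which define blood and myeloid cells, had no count in any library and Lyz2 at most 1. Of 4 trophoblast markers, Tfap2c and Gata3 made up a sum of 86.9 to 135 CPM in WT, 147 to 200 in DGCR8 KO and 47.2 to 94.6 in DDX6 KO, while Elf5 had no count and Cdx2 at most 5. Tfap2c averaged 90.3 CPM in WT, 164 in DGCR8 KO and 59.4 in DDX6 KO, whereas Gata3 was lower in either knockout (17.7, 13.6 and 9.57). The part of these markers in the levels of Ddx58 and of the interferon pathway genes was not tested.

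The genes whose log2 CPM followed that of Mavs most closely over the 10 libraries were Smc2, a condensin subunit, with a Pearson correlation of 0.931, Rps6kl1 with 0.923 and Zcchc9 with 0.893. These were the highest of all genes with a symbol and are a description. The libraries of a genotype share their cells, and Rps6kl1, at 2.68 CPM on average in WT, rests on few counts.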

How the data were processed

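Counts were analysed as the authors deposited them, with no normalization. Per the study's methods, the table's header and the submitters' processing notes, the authors trimmed reads with cutadapt 1.14, aligned them to mm10 with STAR 2.5.3a, kept unique alignments and counted sense-strand reads over exons of Gencode M14 with featureCounts 1.5.3. Sense counting keeps Adar, Dhx58, Eif2ak2 and Tlr3 apart from genes on the other strand. No molecular identifiers are stated, so the floor of 3 counts covers counting error only. Spike-ins were set apart.

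Libraries were grouped by their titles. Genes that reached 3 CPM in 3 or more libraries were tested in limma 3.58.1 with voom weights and TMM factors from edgeR 4.0.16 (R 4.3.3), with genotype as the only term over all 10 libraries and Benjamini-Hochberg adjustment over 11683 genes, two-sided. The study used limma without stating a transformation, and voom was chosen here. Genes rose or fell at an adjusted p under 0.05. The script was tested on simulated data.

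Named were the 10 sensing genes, both targeted genes, up to 5 passing genes of each list and knockout with the largest fold changes (1 of them is not reported here), and the 3 genes most correlated with Mavs. Members and lists were chosen with earlier results of these data known, so list counts are descriptions. DESeq2 1.42.0, edgeR, limma-trend, other filters and scaling, left-out libraries, single clones and a block on replicate number were alternatives. Same-numbered WT and DGCR8 KO libraries deviated together from their group means (correlations 0.118 to 0.244 over 3 pairs), while the labels do not say what a number marks.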

Additional observations from a re-analysis of the deposited data

Results flagged for a closer look

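In the DDX6 KO group, Tbk1 had 1 library apart from the other 3. Clone 1 replicate 1 was at 52.4 CPM and the rest between 46.7 and 47.6, so that the gap made up 0.838 of the group's range. This was the only such case among 7 genes examined in the group of 4 libraries. The other groups held 3 libraries and were not examined. Tbk1 stayed past the threshold in DDX6 KO without that library.

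The response of Ddx58 differed between the knockouts by 1.34 on the log2 scale (limma adjusted p = 1.16e-04) and that of Trim25 by 0.65 (limma adjusted p = 3.9e-04), in each case higher in DGCR8 KO, with libraries that did not overlap between the knockouts.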

How the results depend on the processing

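The 7 changes of sensing genes past the threshold (Ddx58 and Tbk1 in DGCR8 KO, Tbk1, Eif2ak2 and Trim25 in DDX6 KO, and Ddx58 and Trim25 between the knockouts) kept their direction and stayed past it in 129 of 129 checks, over other tests, filters and scaling, left-out libraries and, for DDX6 KO, single clones. Not among these checks was the fit with each clone as its own group. There Eif2ak2 missed the threshold against WT in clone 1 (limma adjusted p = 0.0511) and passed in clone 2 (limma adjusted p = 0.0385). Requiring a log2 fold change beyond 1 left 1 sensing gene in DGCR8 KO, 0 in DDX6 KO and 1 between the knockouts. Scaled to total counts, Adar passed in DDX6 KO (log2 fold change 0.48, limma adjusted p = 0.0425), as did the Tbk1 difference between the knockouts (-0.36, limma adjusted p = 0.0481). Without a filter, 3 sensing genes passed in DGCR8 KO and 4 in DDX6 KO, Ifih1 and Tlr3 being those added. The value for Tlr3 relative to its chromosome could not be computed because the gene was not tested.

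Genes of the 5 lists past the threshold in DDX6 KO numbered 27. Leaving out 1 library at a time gave 15 to 32, the lowest without WT replicate 3, and clone 1 or clone 2 alone gave 16 each. In DGCR8 KO the 43 list genes became 32 to 43. The double-stranded RNA binding proteins past the threshold in DGCR8 KO went from 7 to 4 without WT replicate 2 or DGCR8 KO replicate 3. In DDX6 KO they went from 3 to 1 without WT replicate 3 and to 5 without DGCR8 KO replicate 2, and between the knockouts from 6 to 3 without DGCR8 KO replicate 1 or 2. Partners in DDX6 KO went from 18 to 10 without WT replicate 3, and interferon-stimulated genes there from 3 to 1 without WT replicate 3 or clone 1 replicate 2. Of 35 changes of named list genes, 21 stayed past the threshold wherever the gene was tested. The other 14 fell short in 71 of 598 checks in all, and 0 reversed. Settings in which a gene missed the filter were not counted. Rsad2, Psmb8, Gbp2 and Zbp1 in DGCR8 KO had 13 checks, against 17 for Irf1, and none with a DGCR8 KO library left out. Such genes also dropped out of the list counts above. Irf5, Adarb1, Dhx9, Igtp and Parp14 in DDX6 KO fell short in 6 to 11 settings each. The causes were not tested.

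Libraries with the same replicate number had deviations from their group means that correlated at -0.068 to 0.244 over 11 pairs, of which 7 exceeded 0.1, although 9 of 10 libraries correlated best with one of their own number. All 3 pairs of WT with DGCR8 KO did, and there the block ended no call of a named gene. Pairs with DDX6 KO did not all exceed it, so those were not taken as paired. With a replicate block 2 sensing genes passed in DGCR8 KO and 4 in DDX6 KO, where Ddx58 was added (log2 fold change 0.59, limma adjusted p = 0.0231). Depth limits Ifih1, Dhx58 and Tlr3, which had at most 4 counts in a library.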
